A study of Mus musculus with 24 samples.

Results

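The genes described are Trp53 and 31 genes regarded as targets or regulators of p53, a set of 32 of the 21878 genes in the count table, chosen by name and described in thymic lymphomas and normal thymus of the mouse. All 32 were in the table, and all 32 passed the filter on low counts that left 13121 genes for testing. The 21 lymphomas arose in female B6C3F1 mice (a hybrid of C57BL/6 and C3H strains) given 4 weekly whole-body exposures to carbon ions of 1.6 Gy, the first at 4 to 5 weeks of age. The 3 controls are libraries of normal thymus, for which the labels repeat the irradiation text and whose titles carry the mark 7W, not explained there. The age of the mice when the lymphomas were taken is not stated in the labels. In both groups poly(A) RNA was sequenced from cell suspensions, of lymphoma cells or of thymocytes. The lymphomas were read as an Ikzf1-mutated set (11) and an unmutated set (10), Ikzf1 being the gene of the lymphoid transcription factor Ikaros. Whether every library is from a separate animal is not stated, and the p-values therefore describe the variation among these libraries.

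p53 is a transcription factor that is held low by the ubiquitin ligase Mdm2 and its partner Mdm4, and that is stabilised after DNA damage or oncogene stress. It then binds response elements made of paired decamers and raises genes for cell cycle arrest, repair, antioxidant defence and apoptosis, Mdm2 among them, which closes a feedback loop. In the thymus p53 drives the death of irradiated thymocytes, and mice without Trp53 are known for thymic lymphoma.

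Depth was 14998988 to 36559710 counts in the lymphomas and 24543936 to 27544876 counts in the thymus libraries, and the 10 most abundant genes took 3.72% to 5.2% of the counts of a library. Levels are given as CPM, counts scaled to the library total, after TMM scaling, a correction for differences in composition between libraries. Of the 11 T lineage markers, 8 were lower in the lymphomas (summed level 3979 to 11828 CPM, against 14969 to 16157 CPM in thymus). Macrophage markers were higher for 12 of 13 (314 to 1283 CPM against 149 to 223 CPM) and fibroblast markers for 8 of 9 (59.3 to 1297 CPM against 12.2 to 16.2 CPM), a sum of which Col1a2 and Pdgfrb made up 86.8% over the lymphomas. All 8 tested markers of thymic epithelium and all 5 of neutrophils were lower, as were 4 of 5 of natural killer cells. None of 5 B cell markers and neither of 2 tested endothelial markers passed the test, and 1 of 2 tested erythroid markers was higher. The part of these other cells in the results below was not tested, and in bulk RNA fewer cells of a type and less RNA per cell cannot be told apart.

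The promoters of 5 members are shown because 4 of these genes were measured above thymus in most lymphomas and 1, Sesn1, below it in nearly all. A window of 300 bases around a RefSeq start site (build GRCm38.p6) was found for 25 of the 32 members. Capitals mark matches to the p53 response element decamer, searched on both strands at once because its consensus is its own reverse complement. The Cdkn1a window, chr17:29090729-29091028 on the plus strand, holds 2 matches, 73 and 51 bases before an upstream start site, and the window of the other Cdkn1a start site holds none. The Ccng1 window, chr11:40755237-40755536 on the minus strand, holds 1 match 185 bases before the start. The Aen window is chr7:78895677-78895976 on the plus strand, that of Ei24 chr9:36797285-36797584 on the minus strand, and that of Sesn1 chr10:41887189-41887488 on the plus strand, at 1 of 2 Sesn1 start sites.
Cdkn1a: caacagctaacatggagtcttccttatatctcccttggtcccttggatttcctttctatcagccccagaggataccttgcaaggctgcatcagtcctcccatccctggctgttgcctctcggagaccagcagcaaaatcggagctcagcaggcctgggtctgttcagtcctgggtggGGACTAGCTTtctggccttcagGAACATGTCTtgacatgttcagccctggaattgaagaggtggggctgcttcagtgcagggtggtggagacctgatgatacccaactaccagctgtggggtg
Ccng1: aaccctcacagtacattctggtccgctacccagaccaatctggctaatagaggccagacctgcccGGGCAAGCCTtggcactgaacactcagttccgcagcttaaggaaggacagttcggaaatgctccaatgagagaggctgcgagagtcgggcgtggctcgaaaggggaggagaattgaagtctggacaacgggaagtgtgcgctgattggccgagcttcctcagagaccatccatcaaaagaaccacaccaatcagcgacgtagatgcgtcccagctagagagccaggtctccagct
Aen: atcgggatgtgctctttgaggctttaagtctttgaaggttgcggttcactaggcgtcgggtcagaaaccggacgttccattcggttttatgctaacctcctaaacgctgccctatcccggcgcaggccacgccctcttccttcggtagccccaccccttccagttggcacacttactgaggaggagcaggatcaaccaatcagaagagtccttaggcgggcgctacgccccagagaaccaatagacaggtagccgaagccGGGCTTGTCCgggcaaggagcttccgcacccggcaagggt
Ei24: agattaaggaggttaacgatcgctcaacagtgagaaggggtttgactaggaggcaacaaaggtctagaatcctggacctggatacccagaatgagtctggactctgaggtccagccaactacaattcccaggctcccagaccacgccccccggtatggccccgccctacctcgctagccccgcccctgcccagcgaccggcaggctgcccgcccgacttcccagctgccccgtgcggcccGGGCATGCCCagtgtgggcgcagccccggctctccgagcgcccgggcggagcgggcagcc
Sesn1: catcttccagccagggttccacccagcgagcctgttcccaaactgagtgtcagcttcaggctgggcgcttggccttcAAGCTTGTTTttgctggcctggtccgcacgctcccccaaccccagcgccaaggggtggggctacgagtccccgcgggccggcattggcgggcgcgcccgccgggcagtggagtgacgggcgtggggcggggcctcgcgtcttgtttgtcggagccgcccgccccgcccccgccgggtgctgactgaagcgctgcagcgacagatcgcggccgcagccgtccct
Of the 25 members with a window, 12 (48%) held a match in at least 1 of their windows, among them Trp53, Mdm2, Gadd45a, Gtse1, Polk, Ppm1d and Ckap2. Of all 27025 genes with a window, 2582 (9.55%) held one, and 0.359% of the 32851 windows held 2 or more. A match describes these letters and is no measure of binding.

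Trp53 (chr11:69580359-69591873, plus strand, GRCm38) was the steadiest member and lay above thymus in every lymphoma. The 3 thymus libraries had 195, 192 and 197 CPM, and the lymphomas ranged from 231 (lymphoma 7) over a median of 299 to 337 CPM (lymphoma 16), so the groups did not overlap. The means were 295 ± 30.5 (SD, n = 21) and 195 ± 2.47 CPM (SD, n = 3). Expression was higher by 0.60 on the log2 scale (SE 0.10, adjusted p = 0.000187, quasi-likelihood test of edgeR, Benjamini-Hochberg over all tested genes). The spread of Trp53 across lymphomas, an SD of 0.15 in log2, was at the 2.64th percentile of all tested genes. Chromosome 11 is partly deleted in lymphomas of this kind according to the series title. The 63 expressed genes within 5 Mb of Trp53 had a median log2 level, relative to thymus, of −0.33 to 0.11 in the lymphomas.

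Across the 32 genes, 14 passed the test between lymphoma and thymus, a share of 43.8% against a background of 30.8% of all tested genes. The 6 that were higher (15.4% of all tested genes were) were Trp53, Sesn2, Phlda3, Aen, Ei24 and Gdf15. The 8 that were lower (15.4% of all tested genes) were Mdm2, Mdm4, Sesn1, Trp53inp1, Fas, Btg2, Ddb2 and Gadd45a. The median log2 fold change of the 32 was 0.02, beside 0.07 for all tested genes. Among the 32, the lymphoma and thymus values did not overlap for 3 higher members (9.38%, Trp53, Sesn2 and Aen, background 6.33%) and 3 lower ones (9.38%, Fas, Btg2 and Ddb2, background 7.93%). The members thus stood on both sides of their thymus level, as all tested genes did. The heat map shows all members by library.

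**Figure D1:**
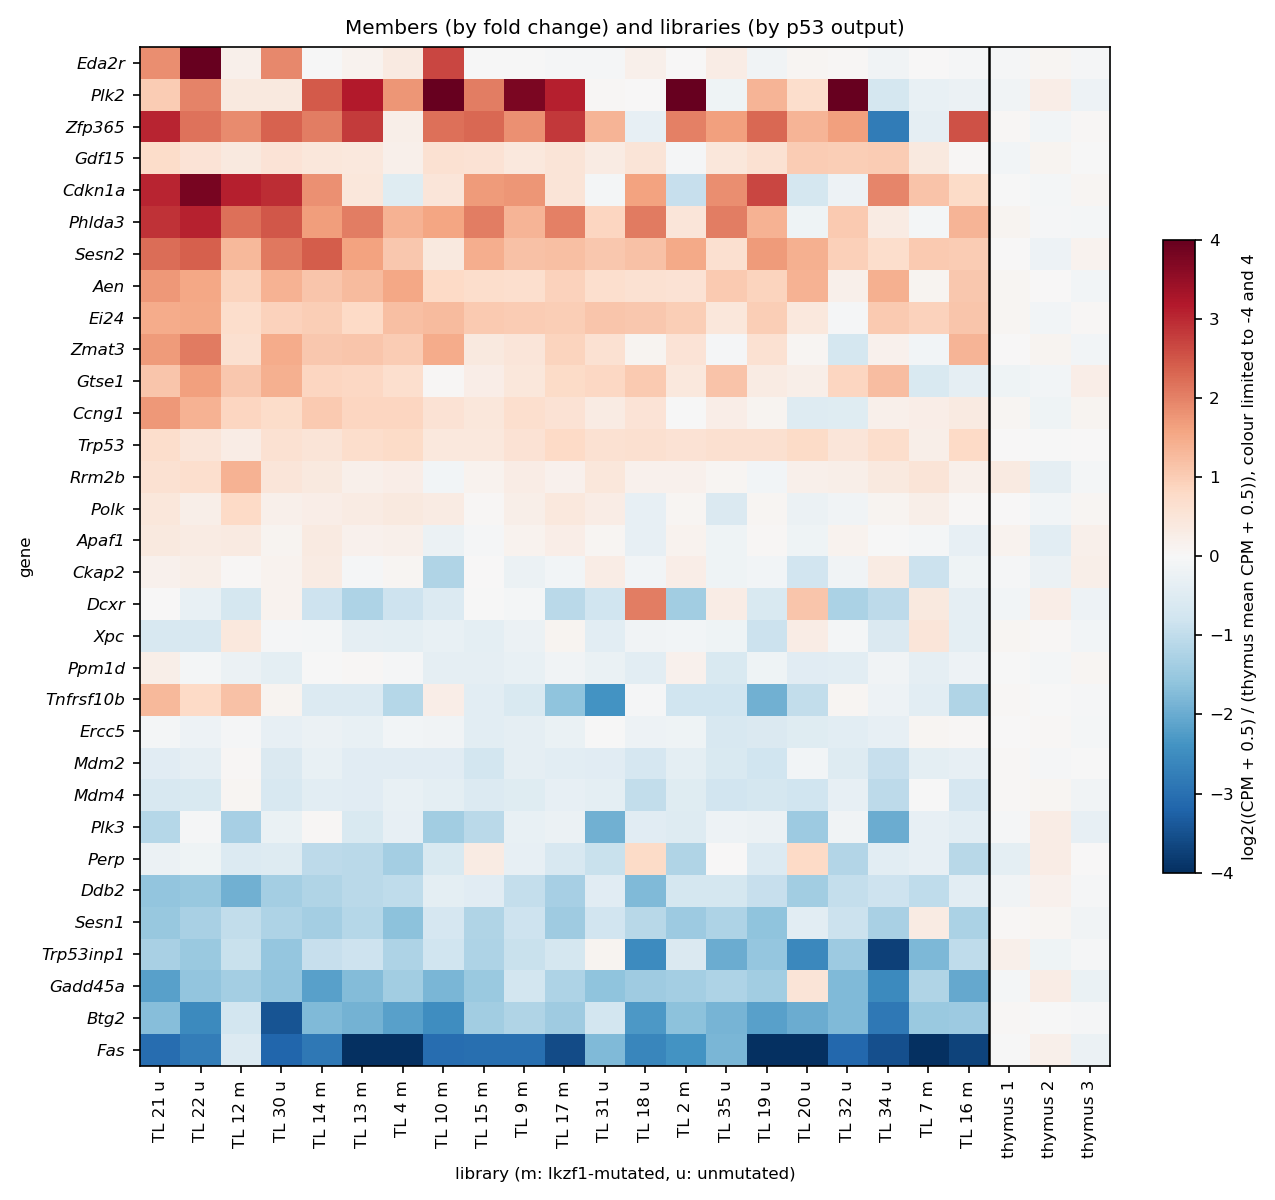
Level of each of the 32 genes (rows, by fold change) in each library (columns, lymphomas by decreasing p53 output, then thymus) as log2 of CPM + 0.5 over the thymus mean + 0.5, with colour limited at −4 and 4. Every lymphoma is above thymus for Sesn2 and Aen (palest in lymphoma 7 for Aen) and below it for Fas and Btg2, in the bottom rows, while Cdkn1a, Plk2 and Eda2r change colour between them.

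Of the negative regulators Mdm2 and Mdm4 were lower in the lymphomas, calls that did not hold without single thymus libraries, and Ppm1d did not pass. Mdm2 (chr10:117688875-117710758, minus strand), both a p53 target and its main inhibitor, had 151, 141 and 144 CPM in the thymus libraries. In the lymphomas it ranged from 76.9 (lymphoma 34) over a median of 106 to 150 CPM (lymphoma 12), with 20 of 21 below the thymus range and none above. Its log2 fold change was −0.45 (SE 0.13, adjusted p = 0.00955, edgeR's quasi-likelihood test). Mdm4, which binds p53 and blocks its activation domain, had 425, 433 and 368 CPM in thymus and 198 to 429 CPM in the lymphomas (median 290), again highest in lymphoma 12 and lowest in lymphoma 34. It was below the thymus range in 19 of 21 and lower by a log2 fold change of −0.50 (adjusted p = 0.0179, edgeR). Without thymus 1 or thymus 3 the adjusted p of Mdm2 was 0.0776 or 0.0547, and without thymus 1 or thymus 2 that of Mdm4 was 0.107 or 0.117. Ppm1d, the phosphatase Wip1 that ends the p53 response, did not pass the test, with 31.7 to 57.3 CPM in lymphomas and 45.8 to 52 CPM in thymus.

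The genes of cell cycle arrest differed in direction and in spread. Cdkn1a (chr17:29090976-29100727, plus strand), which encodes the cyclin-dependent kinase inhibitor p21, had 3.01, 2.92 and 3.29 CPM in the thymus libraries. In the lymphomas it ranged from 1.37 (lymphoma 2) over a median of 10.5 to 49.1 CPM (lymphoma 22), a 35.7-fold span. It was above the thymus range in 16 lymphomas and below it in 5, namely lymphomas 2, 20, 4, 32 and 31. The lymphomas thus lay on either side of thymus, and the log2 fold change of 2.04 (SE 0.94) did not pass the test (adjusted p = 0.102, edgeR's quasi-likelihood test). Over 7 other settings its adjusted p ran from 0.023 (DESeq2, the only 1 past the threshold) to 0.333. The next highest Cdkn1a levels after lymphoma 22 were 30.6 CPM in lymphoma 12, 28.8 CPM in lymphoma 21 and 27.1 CPM in lymphoma 30. Its spread across lymphomas was at the 93.5th percentile of all tested genes.

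Btg2, an antiproliferative gene that p53 raises, went the other way in all 21 lymphomas. The thymus libraries averaged 1037 ± 30.1 CPM (SD, n = 3), and the lymphomas ranged from 95.1 (lymphoma 30) over a median of 306 to 625 CPM (lymphoma 31). The log2 fold change was −1.72 (SE 0.31, adjusted p = 0.000269, edgeR). Gadd45a, a stress sensor of cell cycle arrest and repair, had 22.2, 29.4 and 19.5 CPM in thymus and 3.65 to 34.4 CPM in the lymphomas (median 8.15). It was below the thymus range in 20 lymphomas and above it in lymphoma 20 alone, with a log2 fold change of −1.38 (SE 0.38, adjusted p = 0.00807, edgeR; 0.0873 without thymus 2).

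Ccng1 (chr11:40748552-40755311, minus strand), which encodes cyclin G1 and feeds back on Mdm2, had 137, 116 and 140 CPM in thymus and 91.9 to 432 CPM in the lymphomas (median 193). It was above thymus in 18 lymphomas and below it in 2 (lymphomas 20 and 32), and its log2 fold change of 0.62 (SE 0.32) did not pass the test (adjusted p = 0.148, edgeR). Gtse1, a G2 and S phase protein that restrains p53, had 31.1 to 149 CPM in the lymphomas and 41.9 to 57.1 CPM in thymus. Its log2 fold change of 0.79 did not pass (adjusted p = 0.0741, edgeR). It passed without lymphoma 7 (0.0333), without lymphoma 16 (0.0455) or with DESeq2 (0.0351). Over all 24 fits that left out 1 library its adjusted p reached 0.226, and over 7 other settings 0.133. Gtse1 lies on chromosome 15, where the median log2 level of 383 other genes relative to thymus ran from −0.09 to 0.63 across lymphomas. Plk2, a polo-like kinase induced by p53, had the widest span of the arrest genes. It went from 0.411 CPM in lymphoma 34 to 75.5 CPM in lymphoma 2, beside 0.861, 1.3 and 0.804 CPM in thymus. The log2 fold change of Plk2 was 3.38 (SE 1.54, adjusted p = 0.0981, edgeR). Over 7 other settings its adjusted p ran from 0.00709 (DESeq2, the only 1 past the threshold) to 0.337. Plk3, another kinase of that family, had 2.83 to 13.2 CPM in the lymphomas, of which 12 lay below thymus and none above, and did not pass (adjusted p = 0.204, edgeR).

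**Figure D2:**
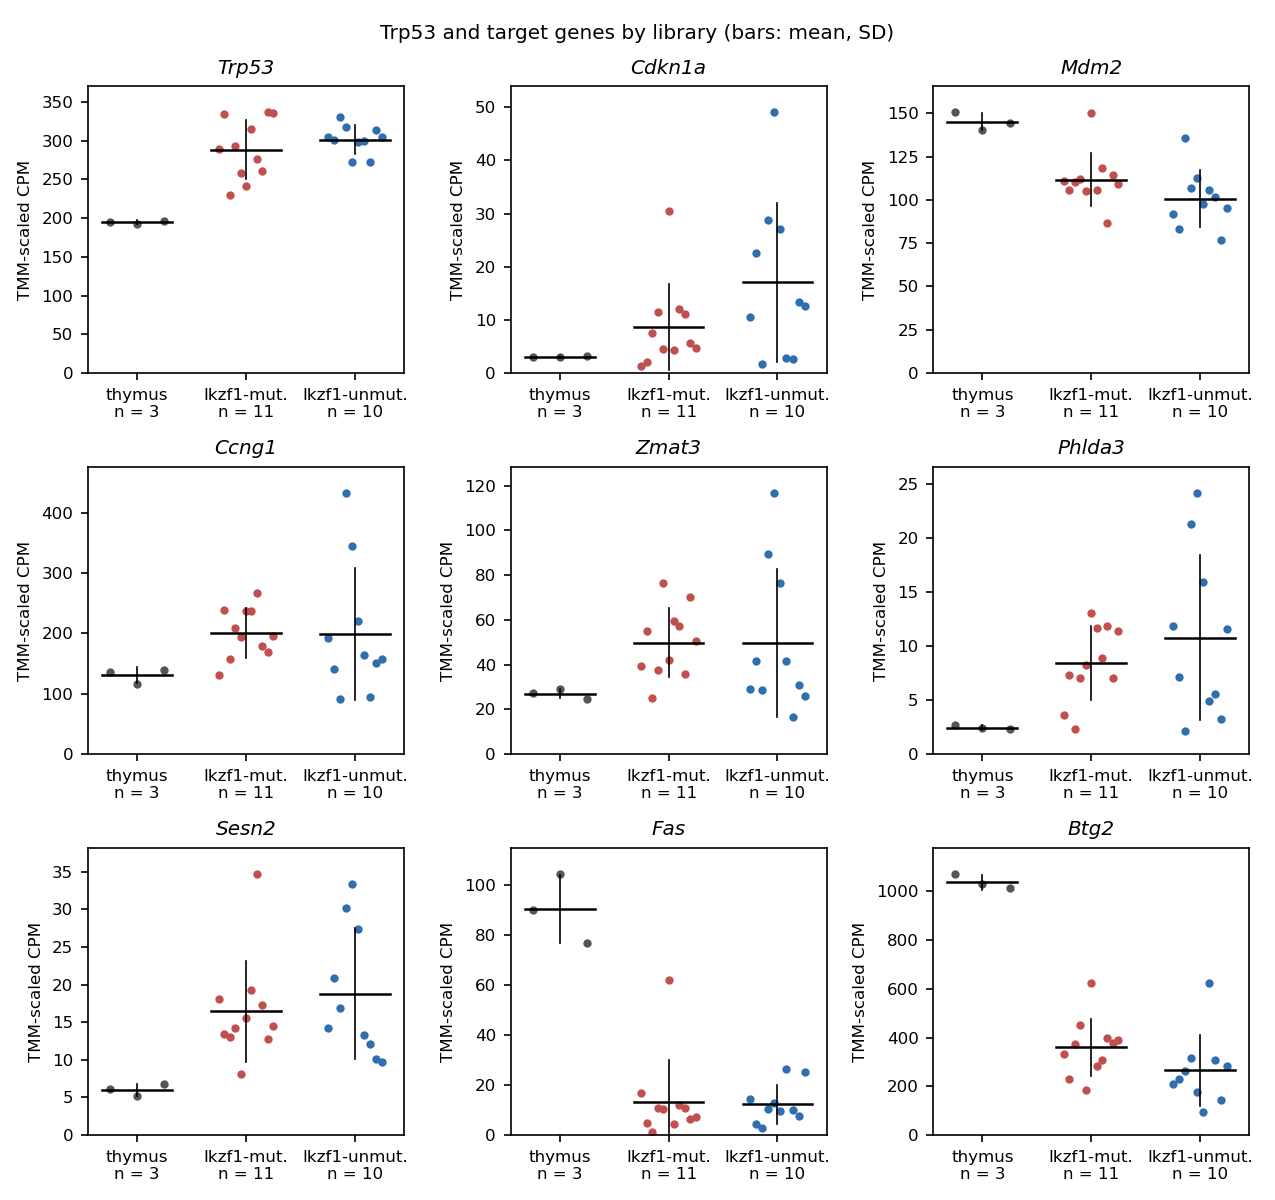
TMM-scaled CPM (vertical axes, from 0) of 9 members in each library of thymus (3), Ikzf1-mutated lymphoma (11) and Ikzf1-unmutated lymphoma (10), with the mean and SD as bars (an SD bar stops at 0). Trp53 and Sesn2 lie above thymus and Fas and Btg2 below it in every lymphoma, whereas Cdkn1a values fall on both sides of the 3 thymus points.

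Stress and survival targets split within a gene pair. Sesn2, a sestrin that restrains mTORC1 and limits oxidative damage, was higher in all 21 lymphomas. It had 6.1, 5.21 and 6.72 CPM in thymus and ranged from 8.12 (lymphoma 10) over a median of 14.5 to 34.7 CPM (lymphoma 14). The log2 fold change was 1.55 (SE 0.39, adjusted p = 0.00472, edgeR). Its paralogue Sesn1 had 162, 165 and 144 CPM in thymus and 49.9 to 196 CPM in the lymphomas, with a median of 66.5. Lymphoma 7 (196 CPM) was above thymus, and the other 20 lymphomas were below it, lymphoma 20 with 118 CPM the nearest. Sesn1 was lower by a log2 fold change of −1.02 (SE 0.26, adjusted p = 0.00451, edgeR). Sesn1 and Sesn2 thus lay on opposite sides of thymus in 20 lymphomas, and both were above it in lymphoma 7.

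Phlda3, a PH-domain repressor of Akt signalling, rose in the lymphomas as a group. It had 2.69, 2.37 and 2.3 CPM in thymus and 2.11 (lymphoma 20) to 24.2 CPM (lymphoma 22) in the lymphomas, with a median of 8.28 and 19 of 21 above thymus. Phlda3 was higher by a log2 fold change of 1.96 (SE 0.62, adjusted p = 0.0188, edgeR). Without thymus 1, 2 or 3 its adjusted p was 0.067, 0.0869 or 0.0739, and it was 0.0614 with limma-voom. Zmat3, an RNA-binding zinc finger protein, had 27.4, 28.9 and 24.7 CPM in thymus and 16.5 (lymphoma 32) to 117 CPM (lymphoma 22) in the lymphomas, with 17 above thymus and 1 below. Its log2 fold change of 0.88 (SE 0.42) did not pass (adjusted p = 0.114, edgeR). Trp53inp1, a nuclear and autophagy protein that promotes p53 activity, had 1097, 851 and 934 CPM in thymus. It ranged from 72.4 (lymphoma 34) over a median of 408 to 1029 CPM (lymphoma 31), and 20 of 21 lymphomas lay below thymus. The log2 fold change was −1.19 (adjusted p = 0.0218, edgeR), and without thymus 1, 2 or 3 the adjusted p was 0.118, 0.0686 or 0.0734.

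Gdf15, a secreted stress cytokine, was called higher at a very low level. Its mean was 0.334 ± 0.163 CPM (SD, n = 21) in the lymphomas and 0.0758 ± 0.0414 CPM (SD, n = 3) in thymus, where 6 counts lay behind it in all. The log2 fold change of Gdf15 was 2.07 (SE 0.60, adjusted p = 0.0112, edgeR; 0.0843 without thymus 1 and 0.0533 without thymus 3). Zfp365, which takes part in replication fork stability, had 3.36 to 3.84 CPM in thymus and 0.103 (lymphoma 34) to 34.1 CPM (lymphoma 21) in the lymphomas. It was above thymus in 18 lymphomas and below it in 3, with a log2 fold change of 2.10 (adjusted p = 0.0552, edgeR). The adjusted p of Zfp365 was 0.0492, 0.0381, 0.0398 or 0.00961 without lymphoma 4, 7, 18 or 34, and 0.00732 with DESeq2. It reached 0.175 over all 24 fits that left out 1 library and 0.355 over 7 other settings, of which only DESeq2 passed.

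Among the genes of apoptosis the receptor Fas had the largest decrease of the 32 genes. Fas, the death receptor of the CD95 pathway, had 90, 104 and 76.8 CPM in thymus. In the lymphomas it ranged from 1.23 (lymphoma 7) over a median of 10.5 to 61.9 CPM (lymphoma 12), so all 21 lay below the thymus range. Fas was lower by a log2 fold change of −2.81 (SE 0.54, adjusted p = 0.000471, edgeR). The second highest Fas level among the lymphomas was 26.5 CPM, in lymphoma 31. Tnfrsf10b, the mouse receptor for TRAIL, did not pass the test, with 6 lymphomas above and 15 below a narrow thymus range of 5.26 to 5.6 CPM. It was highest in lymphomas 21 (14.1 CPM), 12 (12.9 CPM) and 22 (9.75 CPM).

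The intracellular apoptosis members Aen and Ei24 were higher. Aen, a nuclease that digests DNA during apoptosis, had 20.3 to 23.2 CPM in thymus and 23.3 (lymphoma 7) to 73.2 CPM (lymphoma 21) in the lymphomas, with a median of 41.8 and no overlap. Aen was higher by a log2 fold change of 1.05 (SE 0.27, adjusted p = 0.00581, edgeR). Ei24, an endoplasmic reticulum protein first found as a p53-induced gene, had 56, 49.6 and 54.7 CPM in thymus and 52.1 (lymphoma 32) to 155 CPM (lymphoma 22) in the lymphomas, of which 20 were above thymus. Its log2 fold change was 1.00 (SE 0.21, adjusted p = 0.0012, edgeR). Apaf1, the scaffold of the apoptosome, had 62.7 to 104 CPM in the lymphomas and 58.6 to 89.6 CPM in thymus and did not pass. Perp, a membrane protein of apoptosis and desmosomes, had at most 1.72 CPM in any lymphoma and did not pass either.

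Eda2r, a receptor of the TNF receptor family and a p53 target on chromosome X, was near zero in most libraries and high in a few. The thymus libraries held 4 counts in all (0.0359, 0.079 and 0.0365 CPM). Lymphoma 22 had 8.77 CPM, lymphoma 10 3.04 CPM, lymphoma 30 1.58 CPM and lymphoma 21 1.51 CPM, and no other lymphoma exceeded 0.2 CPM. The median over the lymphomas was 0.0637 CPM, and the log2 fold change of 3.79 (SE 2.17) did not pass the test (adjusted p = 0.187, edgeR).

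Ddb2 was lower in every lymphoma, while Xpc, Ercc5, Rrm2b and Polk, also genes of repair or DNA synthesis, did not pass the test. Ddb2, the damage sensor of nucleotide excision repair, had 69.2 to 86.5 CPM in thymus and 19.8 (lymphoma 12) to 57.5 CPM (lymphoma 10) in the lymphomas, with a median of 37.6 and no overlap. Its log2 fold change was −0.99 (SE 0.23, adjusted p = 0.00271, edgeR). Xpc, the other damage sensor of that pathway, had 36.8 to 94.5 CPM in the lymphomas and 62.4 to 70.9 CPM in thymus and did not pass. Ercc5, the repair endonuclease, had 24.2 to 39.6 CPM in the lymphomas and 36.2 to 39.1 CPM in thymus, with 17 lymphomas below thymus and 2 above, and did not pass (adjusted p = 0.154, edgeR). Rrm2b, the p53-inducible subunit of ribonucleotide reductase, had 20.1 to 35.2 CPM in all lymphomas but lymphoma 12, which had 58.4 CPM. Polk, a translesion polymerase, had 14.5 to 38 CPM, highest in lymphoma 12 as well. Rrm2b and Polk did not pass the test, and neither did Ckap2, a spindle protein, or Dcxr, a carbonyl reductase.

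Single lymphomas differed in how much of this output they showed. As a description with no test, p53 output was taken in each library as the median, over 24 targets, of log2 of CPM + 0.5 over the thymus mean + 0.5. Trp53, Mdm4, Gtse1, Ckap2, Polk, Dcxr, Ercc5 and Xpc were not part of it. The thymus libraries lay between −0.04 and 0.03, and the lymphomas between −0.22 and 0.67, with 11 above, 7 below and 3 within the thymus values. The thymus values lie near 0 by construction, because the mean of the same 3 libraries is the reference. Counts of lymphomas outside them are therefore no comparison with an independent thymus spread. The same median on TPM put 6 above, 9 below and 6 within (thymus −0.06 to 0.08), and the mean over the targets on CPM put 10 above, 10 below and 1 within. The highest were lymphomas 21 (0.67), 22 (0.62), 12 (0.38) and 30 (0.25), which are also the 4 with the most Cdkn1a, and the lowest were lymphomas 16 (−0.22), 7 (−0.21), 34 (−0.17) and 32 (−0.16). On TPM the 4 highest were the same lymphomas, and the 4 lowest were lymphomas 34, 16, 20 and 18. By the mean on CPM the 4 highest were lymphomas 22, 21, 12 and 10, and the 4 lowest were lymphomas 34, 7, 20 and 4. Cdkn1a is 1 of the 24 targets, so the overlap with the most Cdkn1a is partly built in. In lymphoma 21, 15 of the 24 targets were above the thymus range and 8 below it, and in lymphoma 32, 7 were above and 12 below. Lymphoma 16, the lowest by the CPM median, had 8 targets above and 13 below, and a mean over the targets of −0.16. Zmat3 (70.3 CPM) and Zfp365 (24.1 CPM) were among its targets above thymus. The 4 highest by the CPM median, lymphomas 21, 22, 12 and 30, had macrophage marker sums of 439, 580, 363 and 495 CPM. These lay inside the range of the others, and the part of these cells was not tested.

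The extreme values of the members were gathered in a few libraries. Lymphoma 22 was the highest lymphoma for 6 of the 32 genes (18.8%, against 2.44% of all tested genes), namely Cdkn1a, Zmat3, Eda2r, Phlda3, Ei24 and Gtse1. Lymphoma 21 was also the highest for 6 (18.8%, against 2.5% of all tested genes), namely Ccng1, Aen, Tnfrsf10b, Apaf1, Zfp365 and Ppm1d. Lymphoma 12 was the highest for Mdm2, Mdm4, Fas, Rrm2b and Polk (15.6%, against 8.45% of all tested genes), and its T lineage marker sum of 11828 CPM was the highest of the lymphomas. At the other end, lymphoma 34 was the lowest for 7 members (21.9%, against 6.68% of all tested genes): Mdm2, Mdm4, Trp53inp1, Plk2, Plk3, Gadd45a and Zfp365. Lymphoma 34 nevertheless had 13.4 CPM of Cdkn1a, above the median of the lymphomas, so its low members did not include p21.

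No member passed a test of relation to the Trp53 transcript across the 21 lymphomas. Of 31 relations of a member to Trp53 on log2(CPM + 1), 0 passed at an adjusted p of 0.05 by a two-sided permutation test, and 4 had an unadjusted p under 0.05. Cdkn1a had r = −0.27 (permutation p = 0.237, adjusted p = 0.85; rho = −0.24, p = 0.305, adjusted p = 0.953; r = −0.21 without lymphomas 7 and 12). Within the sets it was −0.55 (mutated) and −0.19 (unmutated). The most negative was Mdm4 with r = −0.58 (permutation p = 0.00541, adjusted p = 0.126; rho = −0.42, p = 0.061, adjusted p = 0.479), and r was −0.25 without lymphomas 7 and 12, both of the mutated set. Aen was the most positive with r = 0.56 (permutation p = 0.00815, adjusted p = 0.126; rho = 0.51, p = 0.0173, adjusted p = 0.397; r = 0.45 without lymphomas 7 and 12). Within the sets Mdm4 had −0.60 in both, and Aen had 0.69 (mutated) and 0.42 (unmutated).

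Phlda3 was the member whose level was most like that of Cdkn1a. Of 31 relations to Cdkn1a, 1 passed, that of Phlda3, with r = 0.66 (permutation p = 0.00107, adjusted p = 0.0332) and rho = 0.63 (permutation p = 0.00305, adjusted p = 0.0945), and 8 had an unadjusted p under 0.05. Without lymphomas 2 and 22, the farthest from the median of Cdkn1a, r was 0.54, and within the sets it was 0.40 (mutated, n = 11) and 0.80 (unmutated, n = 10). Ccng1 followed with r = 0.60 (permutation p = 0.00327, adjusted p = 0.0507; rho = 0.46, p = 0.0353, adjusted p = 0.221). Without lymphomas 2 and 22 its r was 0.49, and it was 0.43 in the mutated and 0.80 in the unmutated set. Tnfrsf10b came next with r = 0.56 (permutation p = 0.00878, adjusted p = 0.0907; rho = 0.51, p = 0.0191, adjusted p = 0.198; r = 0.50 without those 2 lymphomas, 0.64 mutated, 0.51 unmutated). Mdm2, the feedback target, had r = −0.13 with Cdkn1a (permutation p = 0.581, adjusted p = 0.643; rho = −0.08, p = 0.734, adjusted p = 0.77; r = −0.17 without those 2 lymphomas, 0.46 mutated, −0.35 unmutated). These relations share the libraries and their depth and scaling. Relations to Trp53 and to Cdkn1a were computed for the members alone. The share of all tested genes that would pass is therefore not known, and the counts cannot be read as particular to p53 targets.

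**Figure D3:**
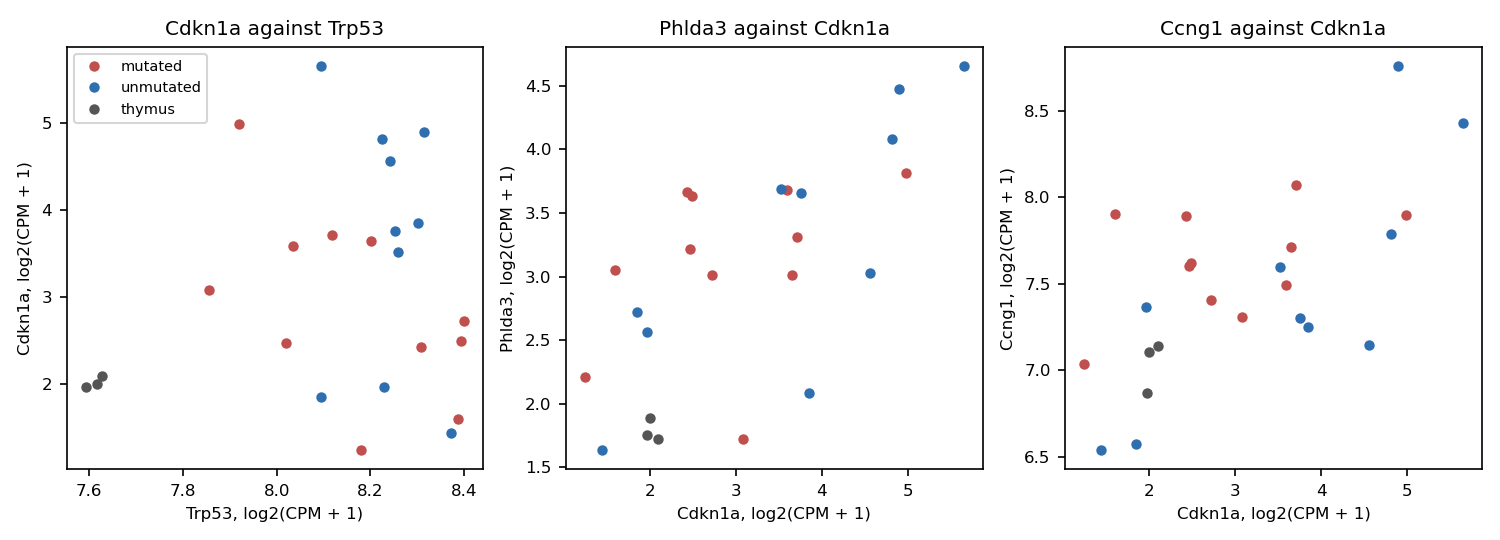
Cdkn1a against Trp53, and Phlda3 and Ccng1 against Cdkn1a, each as log2(CPM + 1), with 1 point per library of the mutated (11) and unmutated (10) lymphomas and thymus (3). Cdkn1a has no visible trend with Trp53 (r = −0.27 over the lymphomas), while Phlda3 and Ccng1 rise with it (r = 0.66 and 0.60).

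The design compares lymphomas with and without Ikzf1 mutation, each with normal thymus. In the mutated set 12 of the 32 genes passed against thymus (37.5%, background 26%), 6 higher (background 13.1%) and 6 lower (background 12.9%). In the unmutated set 16 passed (50%, background 35.4%), 8 higher (background 18%) and 8 lower (background 17.3%). The 2 comparisons share their 3 thymus libraries. Higher in both were Trp53, Sesn2, Phlda3, Aen, Ei24 and Gdf15, and lower in both were Mdm2, Sesn1, Fas, Btg2, Ddb2 and Gadd45a. Cdkn1a, Gtse1, Mdm4 and Trp53inp1 passed against thymus in the unmutated set and not in the mutated one. For Cdkn1a the log2 fold changes were 1.49 (SE 0.89, adjusted p = 0.219) in the mutated and 2.47 (SE 0.96, adjusted p = 0.0469) in the unmutated set, by edgeR's quasi-likelihood test. The unmutated call of Cdkn1a was lost, with adjusted p up to 0.138, without any single thymus library and without lymphoma 7, 9, 13, 14, 15, 16, 17, 19, 21, 22, 30 or 34. It was also lost with limma-voom, without the count filter and on the log2(TPM + 1) and log2(TPM + 0.1) scales, where its highest adjusted p was 0.237.

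Of the 12 calls shared by both sets, those of Trp53, Fas, Ei24 and Btg2 held against thymus in each set without any single library. In the mutated set, leaving out a thymus library raised the adjusted p (edgeR) to at most 0.0757 for Aen (thymus 1, 2 or 3), 0.0733 for Sesn2 (thymus 2), 0.0815 for Sesn1 (thymus 1 or 2), 0.0912 for Ddb2 and 0.0889 for Gadd45a (thymus 2 for both). It raised that of Gdf15 to 0.153, Mdm2 to 0.158 and Phlda3 to 0.137, each lost without thymus 1, 2 or 3. By other methods the mutated-set call of Gdf15 was lost with DESeq2 (0.0589), limma-voom (0.0503) and log2(TPM + 1) (0.0762), that of Phlda3 with limma-voom (0.0893) and log2(TPM + 1) (0.0537), and that of Mdm2 without the count filter (0.072). In that set Mdm2 was also lost without lymphoma 4, 15, 17 or 35 (up to 0.054) and Phlda3 without lymphoma 13, 15 or 17 (up to 0.0523). Mdm4 passed there without lymphoma 7 (0.0369) or 12 (0.0244), and Trp53inp1 without lymphoma 31 (0.0207) or 34 (0.0435). In the unmutated set Gadd45a was lost without thymus 1 or 2 (up to 0.137), Phlda3 without thymus 2 or 3 (up to 0.0581) or with limma-voom (0.0739) and Gtse1 without thymus 1 or 2 (up to 0.06).

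Between the sets themselves 0 of the 32 genes passed (background 5.38% of all tested genes, 2.43% higher and 2.95% lower in the mutated set), by edgeR's quasi-likelihood test. An unadjusted p under 0.05 was reached by 6 members (18.8%, against 23.1% of all tested genes), and DESeq2 called 2 members and limma-voom 1. Trp53 had 288 ± 38.4 CPM (SD, n = 11) in the mutated and 301 ± 18.2 CPM (SD, n = 10) in the unmutated set, a log2 difference of −0.06 (SE 0.07, adjusted p = 0.612, edgeR). Cdkn1a had 8.66 ± 8.15 and 17.1 ± 15 CPM (log2 difference −0.98, SE 0.54, adjusted p = 0.276, edgeR). The spread within each set was thus about as large as the mean for Cdkn1a. Mdm4 came nearest to the threshold, with 320 ± 52.5 CPM in the mutated and 257 ± 40.8 CPM in the unmutated set. Its log2 difference was 0.32 (SE 0.10, adjusted p = 0.0546, edgeR), and 0.0173 to 0.0674 was the range of its adjusted p over 7 other settings, of which 5 were past the threshold. Without lymphoma 15, 16, 31 or 32 the adjusted p of Mdm4 was 0.0486, 0.0369, 0.0274 or 0.0297.

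Gtse1 was next, with 66.8 ± 21.9 and 98.6 ± 28.4 CPM (log2 difference −0.56, SE 0.19, adjusted p = 0.0828, edgeR, and 0.0494 with DESeq2). The median log2 level of 383 chromosome 15 genes relative to thymus had a median of −0.01 over the mutated and 0.48 over the unmutated lymphomas, and its part in the Gtse1 values was not tested. Rrm2b, on the same chromosome, differed by 0.05 (SE 0.16). Eda2r differed by −1.77 (SE 1.07, adjusted p = 0.328, edgeR), and without lymphoma 10, the single mutated lymphoma with a high value, the difference was −3.97 (adjusted p = 0.0349). Plk2 differed by 1.70 (SE 0.80, adjusted p = 0.202, edgeR), and by 2.96 without lymphoma 32 (adjusted p = 0.0243). For each gene this was the only 1 of 24 fits leaving out a library that passed. Over those fits the adjusted p reached 0.961 for Eda2r and 0.453 for Plk2, and none of 7 other settings passed. The plot of fold changes by set shows the members side by side.

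**Figure D4:**
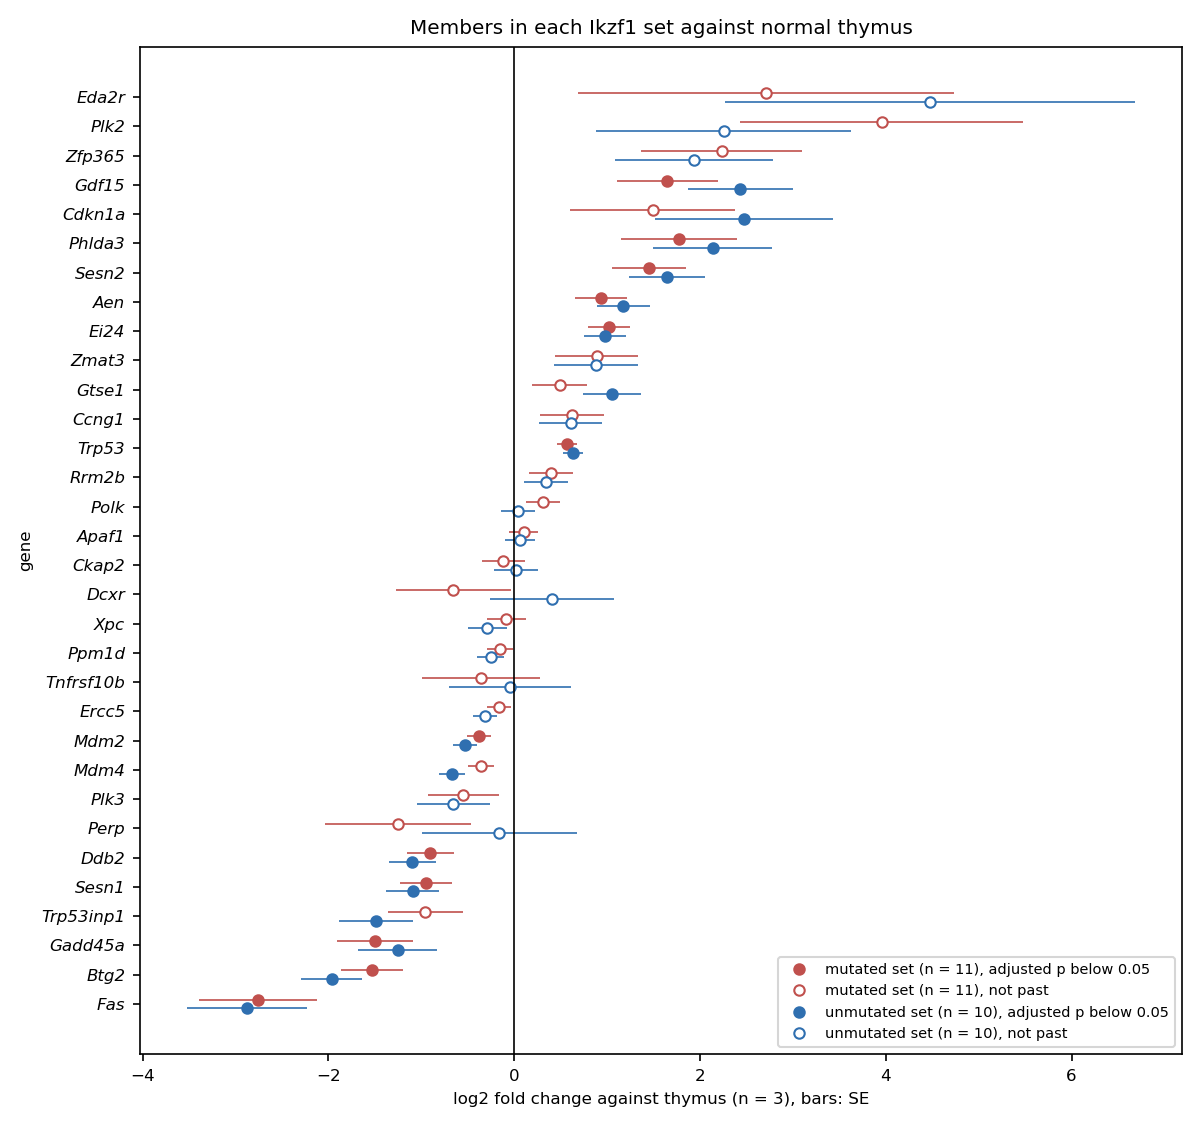
Log2 fold change against thymus (horizontal axis, bars SE) of the 32 genes in the Ikzf1-mutated (red, n = 11) and unmutated (blue, n = 10) lymphomas, filled where the adjusted p was below 0.05 by edgeR's quasi-likelihood test. The 2 sets lie close together for Trp53 (0.57 and 0.63) and Fas (−2.76 and −2.87), and the intervals are wide for Eda2r and Plk2.

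Regulators upstream of p53 changed in both directions. Of 22 tested, 8 were higher and 4 lower in lymphoma than in thymus, together 54.5% beside 30.8% of all tested genes (15.4% in each direction). Their median log2 fold change was 0.19, beside 0.07 for all tested genes. Cdkn2a, whose locus encodes the Mdm2 inhibitor p19Arf and the kinase inhibitor p16, had 0.118 to 0.323 CPM in thymus and 0.446 to 76.6 CPM in the lymphomas (log2 fold change 6.42, SE 1.83, adjusted p = 0.0104, edgeR). Its median over the lymphomas was 8.52 CPM. The highest levels were 76.6, 75.7 and 74.5 CPM in lymphomas 7, 32 and 14, whose p53 output was −0.21, −0.16 and 0.20. Lymphomas 21, 22, 12 and 30, the highest in p53 output by the CPM median, had 8.52, 16, 5.82 and 6.88 CPM of Cdkn2a. Lymphomas 16 and 34, among the lowest by that median, had 8.76 and 1.03 CPM. A relation of Cdkn2a to p53 output was not tested. Chek2, a checkpoint kinase that phosphorylates p53, was higher by 0.65 (SE 0.14, adjusted p = 0.00166, edgeR). Rchy1, the ubiquitin ligase Pirh2 that acts on p53, was lower by a log2 fold change of −0.71 (SE 0.09, adjusted p = 7e-06, edgeR), and the acetyltransferase gene Crebbp by −0.98 (SE 0.26, adjusted p = 0.00619). Between the sets 1 of the 22 passed (4.55%, beside 5.38% of all tested genes), Trp53bp1, a partner of p53 in damage signalling, with a log2 difference of 0.48 (SE 0.09, adjusted p = 0.0101, edgeR).

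Of 35 further p53 targets that were tested, 5 were higher and 6 lower in lymphoma (31.4%, beside 30.8% of all tested genes, with a median log2 fold change of 0.26). The smallest p-values were those of Fbxw7 (−0.79), a ubiquitin ligase subunit, Bcl2l1 (−2.58), the survival gene Bcl-xL, Trp53i13 (−1.74) and 9030617O03Rik (2.73). The apoptosis genes Bax (0.44), Bbc3 (−0.76) and Pmaip1 (−0.26) did not pass. Between the sets 2 were higher in the mutated lymphomas (2.43% of all tested genes were), Ephx1 and Pmaip1, and 4 were lower (2.95% of all tested genes), among them Rps27l and Pmm1. Pmaip1, the apoptosis gene Noxa, had 4.88 ± 5.35 CPM (SD, n = 11) and 1.02 ± 0.59 CPM (SD, n = 10) in the mutated and unmutated sets (log2 difference 2.25, SE 0.60, adjusted p = 0.0332, edgeR). Of 20 cell cycle genes that p53 and p21 lower through the DREAM repressor complex, 1 was higher in lymphoma than in thymus (Mybl2, 0.82, adjusted p = 0.0252, edgeR) and 0 were lower, beside 15.4% of all tested genes in each direction. An unadjusted p under 0.05 was reached by 2 of the 20 (10%, beside 41.7% of all tested genes). Between the sets 5 of the 20 were lower in the mutated lymphomas (25%, beside 2.95% of all tested genes), led by Aurka (log2 difference −0.53, SE 0.12, adjusted p = 0.0158, edgeR), Cdk1, Cdc25c and Birc5. Cdkn1a averaged 8.66 CPM in the mutated and 17.1 CPM in the unmutated set, and the part of p53 or p21 in these calls was not tested.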

How the data were processed

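The authors deposited a table of raw counts per gene and a table of TPM values (counts scaled by transcript length and library total) for 24 libraries. Tools named in the submitters' processing notes are HISAT2 2.0.1, cutadapt 1.9.1, SAMtools, HTSeq 0.6.1 and edgeR, with build GRCm38.p6. Counting settings and strand use: not given in the sources used here, so reads of overlapping or antisense genes could not be separated.

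The labels do not give Ikzf1 status. The sets were read from which columns the authors placed in their tables of mutated and of unmutated lymphomas, whose counts equal those of the full table in 100% of cells. The method of mutation calling: not given in the sources used here. All libraries carry 1 batch date. Replicates differed by more than sampling noise (chi-square per degree of freedom from 7.92 to 277).

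Genes were kept by edgeR's filterByExpr and tested with edgeR 4.0.16 in R 4.3.3 (TMM, quasi-likelihood test, Benjamini-Hochberg over all kept genes, threshold 0.05). A 2-group model gave lymphoma against thymus and a 3-group model the comparisons of the sets. Both were also run on simulated counts with known fold changes, a run whose outcome is not given here. Far fewer genes were changed in it than were called between lymphoma and thymus. Relations used 100000 permutations of log2(CPM + 1). Alternatives were DESeq2 1.42.0, limma 3.58.1 (voom, and log2 TPM with pseudocounts of 1 and 0.1), DESeq2 size factors in edgeR, no filter, CPM above 1 in at least 2 libraries, and leaving out each library. The TPM table has 21879 lines with 1 repeated symbol. Promoter windows are RefSeq's, build GRCm38.p6.

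The members and lists were chosen with earlier results of these data known. Values are printed for Trp53, Cdkn1a, Mdm2, Ccng1, Zmat3, Eda2r, Phlda3, Sesn2 and each member past the threshold, and other members by range or count, with the lymphoma of an extreme value. Of the further lists, members with the smallest p are named. Bax, Bbc3, Pmaip1, the Cdkn2a levels by lymphoma and the order of members by extreme library were chosen after their values were seen.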

Additional observations from a re-analysis of the deposited data

Results flagged for a closer look

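In the unmutated set of 10 lymphomas, the highest value of 6 of the 32 genes stood apart from the rest by a gap test for single outliers. Chance alone meets that test in about 1 in 20 groups if values are normally distributed. It was run on CPM without taking logs, so that rate need not hold here, and the flags only point to values. Only the 32 genes were put to it, so whether 6 is more than among all tested genes is not known. The mutated set of 11 was not put to that test. Eda2r had 8.77 CPM in lymphoma 22, beside 1.58 CPM in the next lymphoma. Plk2 had 29.6 CPM in lymphoma 32, beside 5.39 CPM. Gadd45a had 34.4 CPM in lymphoma 20, beside 9.78 CPM, and that lymphoma had the lowest T lineage marker sum (3979 CPM) and a macrophage marker sum of 1039 CPM, whose part was not tested. Dcxr had 10.9 CPM in lymphoma 18, beside 5.42 CPM. Trp53inp1 (1029 CPM, beside 388 CPM) and Btg2 (625 CPM, beside 317 CPM) were both highest in lymphoma 31, whose T lineage marker sum of 11049 CPM was the highest of that set.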

How the results depend on the processing

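The calls of Trp53, Sesn1, Sesn2, Aen, Fas, Ei24, Btg2 and Ddb2 between lymphoma and thymus held in all 24 fits that left out 1 library and in all 7 other settings. Leaving out 1 library moved that comparison between 1929 and 4435 genes and between 9 and 16 members, the mutated set against thymus between 1441 and 3904 genes and between 4 and 15 members, the unmutated set against thymus between 2856 and 4895 genes and between 12 and 17 members, and the sets against each other between 301 and 1221 genes and between 0 and 3 members. Between the sets DESeq2 called 1275 genes, against 706, and 2 members (Mdm4 and Gtse1). There limma-voom, DESeq2 size factors in edgeR, log2(TPM + 1) and log2(TPM + 0.1) called 1 member each, Mdm4. The cause was not tested. The difference of Trp53 between the sets changed sign, to 0.0368 on log2(TPM + 1) and 0.0369 on log2(TPM + 0.1), without passing a test in any setting. Of the genes called between lymphoma and thymus, 50% were higher, but 37.5% with limma-voom, 35.6% with log2(TPM + 1) and 38.1% with log2(TPM + 0.1). Between the sets 45.2% were higher in the mutated set, and 76.5% and 76.9% on the TPM scales. Those scales moved the median of all genes to −0.10 (lymphoma against thymus) and 0.10 (between the sets) with the smaller pseudocount. The p53 output of lymphoma 34 was −0.62 and that of lymphoma 4 −0.22 as a mean over the targets. Of 2352 alternatives for single members, 2253 kept direction and call, 70 lost and 27 gained a call, and 2 changed sign. These cover only a chosen part of the pairs of member and comparison. They include pairs with no call to lose, so the share of calls lost is larger than these numbers show. The 3 thymus libraries and the few counts of Eda2r and Gdf15 limit precision. No paired analysis was possible because lymphoma and thymus share only 1 replicate number, which marks no common animal.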
